A study of Mus musculus with 18 samples.

Results

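The expression of 7 genes that govern how T cells leave the thymus, enter lymph nodes and are held back in tissue was followed across all 6 groups of a mouse CD4 T cell series. The genes were chosen by name for these roles: the transcription factors Klf2 and Klf3, the sphingosine-1-phosphate receptors S1pr1 and S1pr4, the retention molecule Cd69 and the integrin chains Itgb7 and Itga4. The choice was made with earlier results of these data known, so the share of the 7 called in a comparison is descriptive. These genes are 7 of the 55536 in the count table, and all 7 were among the 15204 genes with enough counts to be tested. RNA sequencing was done on C57BL/6 CD4 T cells that all bore the OT-II transgene, which encodes a receptor that recognises a peptide of ovalbumin. Each of the 6 groups had 3 libraries. The peripheral cells, from spleens and lymph nodes, were sorted for a naive phenotype with low CD44, without CD25 and with the transgenic receptor chain Va2. The peripheral groups were OTII and W131AOTII, and the same lines without Cbl-b, called Cbl-b-/- OTII and Cbl-b-/-W131AOTII. Thymic cells were CD4 single-positive thymocytes sorted as CD25-negative and Va2-positive, from OTII and from W131AOTII mice; no marker of maturity was part of the thymic sort. W131A changes 1 residue of the kinase ZAP-70 and loosens its autoinhibited form, and the series presents W131AOTII as a genetic model of T cell anergy. Cbl-b is a ubiquitin ligase and a brake on signals from the T cell receptor, and the series asks which pathways under its control restore responsiveness in anergy. Per the labels, the mice numbered 3 for OTII, 12 for W131AOTII, 3 for Cbl-b-/- and 6 for Cbl-b-/-W131AOTII, with 4 and 2 mice a group for the lines that carry W131A. The sources used here give neither the mice behind each library nor their ages, so the p-values speak only of how far these libraries scatter.

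Sphingosine-1-phosphate (S1P) is abundant in blood and lymph and scarce inside lymphoid tissue, and T cells that display the receptor S1PR1 follow this gradient out of the thymus and out of lymph nodes. KLF2 is a zinc finger factor that activates S1pr1 in mature thymocytes and naive T cells, and T cells without it stay in the thymus. CD69 binds S1PR1 and causes its internalisation, which holds recently activated cells in tissue. The integrin chains alpha4 (Itga4) and beta7 (Itgb7) pair to form the receptor for MAdCAM-1 on vessels of the gut and its lymphoid tissue. KLF3 is a largely repressive relative of KLF2, and S1PR4 is a lymphoid receptor for the same lipid.

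The promoter windows of Klf2 and S1pr4 are shown because these genes moved together in the thymus. Both are RefSeq windows on GRCm38.p6 running from 250 bases before to 50 bases after the annotated start, written 5′ to 3′ on the strand of the gene. Windows were found for 5 of the 7 genes (Klf2, Klf3, S1pr4, Itgb7 and Itga4). Klf2 lies at chr8:72318812-72319111 on the plus strand and S1pr4 at chr10:81500088-81500387 on the minus strand. Capitals mark the core of the CACCC box, the kind of element that KLF proteins bind (CACCC, or GGGTG on the other strand).
Klf2: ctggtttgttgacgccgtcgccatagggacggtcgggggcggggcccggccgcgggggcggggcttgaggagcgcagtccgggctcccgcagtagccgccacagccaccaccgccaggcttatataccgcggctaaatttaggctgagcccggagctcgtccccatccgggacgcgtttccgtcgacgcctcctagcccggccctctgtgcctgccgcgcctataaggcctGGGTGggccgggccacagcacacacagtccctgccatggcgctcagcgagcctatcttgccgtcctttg
S1pr4: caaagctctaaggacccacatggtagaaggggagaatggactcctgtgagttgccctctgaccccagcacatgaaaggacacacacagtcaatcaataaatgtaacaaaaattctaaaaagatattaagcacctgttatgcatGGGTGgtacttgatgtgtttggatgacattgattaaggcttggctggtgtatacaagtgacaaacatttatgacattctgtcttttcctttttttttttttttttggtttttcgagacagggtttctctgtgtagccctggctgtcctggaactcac

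The Klf2 window is 69.3% GC and the S1pr4 window 41.0%, and each holds 1 CACCC core. Itgb7 and Itga4 hold 4 each and Klf3 holds 5. The core occurs in 57.5% of the 32851 windows of the same length, so its presence is common. A FOXO-type heptamer, TGTTTAC or GTAAACA, occurs in 3.65% of windows and in 0 of these 5. The Klf2 window also contains TAAATTTA, an AT-rich form of the element bound by MEF2 proteins, which occurs in 0.545% of windows; this form was searched for after the sequence had been seen. These matches describe letters in a window and not binding.

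Libraries held 19708218 to 36218772 counts, and each of the 7 genes had between 1394 and 114584 counts in every library. Levels are given as CPM, counts scaled to a common library size after TMM scaling of library size, and as RPKM, CPM per kilobase of exon, where genes are compared with each other. Cblb, the targeted gene, averaged 129 and 159 CPM in peripheral OTII and W131AOTII cells and 69.5 and 93.6 CPM in the corresponding Cbl-b-/- groups, so these groups had less Cblb RNA but not 0. The 6 T cell markers summed to 6339 to 10430 CPM in every library. B cell markers (9 genes) summed to 752 CPM in W131AOTII replicate 2 from the periphery and to 27.0 to 183 CPM in the other 17 libraries. That library, Cbl-b-/- OTII replicate 2 and thymic OTII replicate 3 stood apart from the others. Calls on the 7 genes that are lost without these 3 are given both ways.

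In thymocytes, W131A went with less Klf2, S1pr1 and S1pr4. These were 3 of the 7 genes, all lower, against a background of 2.77% of tested genes called in either direction. Klf3, Cd69 and Itga4 had log2 fold changes between -0.13 and 0.05, and none of the 7 rose. The comparison asks what the ZAP-70 substitution changes before cells leave the thymus.

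Klf2 (ENSMUSG00000055148, chromosome 8, 72319033 to 72321656, plus strand, GRCm38) was at 539, 427 and 481 CPM in thymic OTII replicates 1 to 3. It was at 267, 166 and 237 CPM in thymic W131AOTII replicates 1 to 3. Every W131AOTII thymocyte library lay below every OTII one. The log2 fold change was -1.11 (SE 0.16, edgeR quasi-likelihood adjusted p = 0.000352), a level of 0.463 of that in OTII thymocytes. It passed the threshold of 0.05 under all 15 alternative settings, with log2 fold changes from -1.25 to -0.87. In bulk RNA, fewer cells of a type and less RNA per cell cannot be told apart.

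S1pr1 (ENSMUSG00000045092, chromosome 3, 115710433 to 115715072, minus strand), the receptor for exit along the S1P gradient, was at 784, 670 and 749 CPM in OTII thymocytes. In W131AOTII thymocytes it was at 379, 423 and 499 CPM. The groups did not overlap, and the log2 fold change was -0.76 (SE 0.12, edgeR adjusted p = 0.000795). It passed in 14 of 15 alternatives, the exception being a fit of only these 6 libraries (adjusted p = 0.0624).

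S1pr4 (ENSMUSG00000044199, chromosome 10, 81497747 to 81500132, minus strand), the second S1P receptor of the set, was at 101, 129 and 136 CPM in OTII and at 84.5, 60.8 and 56.5 CPM in W131AOTII thymocytes. Again the groups were separate. The log2 fold change was -0.86 (SE 0.19, edgeR adjusted p = 0.0164). It was 0.0741 without thymic OTII replicate 3, 0.0889 without thymic W131AOTII replicate 3 and 0.058 with only these groups fitted, so the call was lost in these 3 fits.

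Itgb7 (ENSMUSG00000001281, chromosome 15, 102215995 to 102231944, minus strand), the beta7 chain, was at 1367, 1814 and 1764 CPM in OTII and 1483, 970 and 1319 CPM in W131AOTII thymocytes. These ranges overlap, and the log2 fold change of -0.39 (SE 0.16, edgeR adjusted p = 0.23) did not pass. Cd69 (ENSMUSG00000030156, chromosome 6, 129267325 to 129275436, minus strand), the retention molecule, was at 166, 98.7 and 132 CPM in OTII and at 88.1, 138 and 137 CPM in W131AOTII thymocytes. Its libraries spread widely within both groups (log2 fold change -0.13, adjusted p = 0.783). Klf3 (ENSMUSG00000029178, chromosome 5, 64803388 to 64832901, plus strand) was at 226, 225 and 199 CPM in OTII and 185, 239 and 248 CPM in W131AOTII thymocytes. Itga4 (ENSMUSG00000027009, chromosome 2, 79255426 to 79333123, plus strand), the alpha4 chain, was at 85.5, 84.9 and 87.96 CPM in OTII and 77.6, 99.2 and 89.7 CPM in W131AOTII thymocytes. For both genes the groups overlapped, and the 95% intervals of the log2 fold change were -0.25 to 0.35 for Klf3 and -0.32 to 0.41 for Itga4.

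Markers of cell state moved beside the thymic result. The 3 markers of mature single-positive thymocytes (H2-Q7, Il7r and Ccr7) summed to 2310 to 2439 CPM in OTII and 1697 to 1945 CPM in W131AOTII thymocytes. Of the 3, H2-Q7, a class I molecule gained late in maturation, was lower (log2 fold change -0.64, edgeR adjusted p = 0.0422), while Ccr7 (-0.34) and Il7r (-0.10) did not pass. The 7 immature markers overlapped in sum, at 1042 to 1609 CPM in OTII and 1169 to 1667 CPM in W131AOTII thymocytes. Ccr9 made up most of that sum, at means of 1018 and 961 CPM (log2 fold change -0.08). The log2 fold changes were positive for Dntt (0.76, edgeR adjusted p = 0.0535), Cd8a (0.59), Ptcra (0.53), Rag1 (0.49), Rag2 (0.14) and Cd8b1 (0.10). None of the 7 passed, and Ptcra, Rag1 and Rag2 averaged at most 2.33 CPM. Regulatory T cell markers (4 genes) summed to 42.7 to 68.8 against 97.4 to 117 CPM, and NK and innate-like markers (7 genes) to 153 to 329 against 241 to 510 CPM, OTII first. Of the regulatory markers Foxp3 (log2 fold change 1.22) and Il2ra (1.36) rose. Trdc, a constant segment of the gamma-delta receptor, made up most of the NK and innate-like sum, at means of 237.5 and 346 CPM, and did not pass. In the same list Eomes, a T-box factor of NK and memory-like cells, rose by 3.70 on the log2 scale from a mean of 1.73 to 22.7 CPM (edgeR adjusted p = 2.77e-06). Zbtb16, which encodes PLZF of innate-like T cells, rose by 3.86 from 0.717 to 10.5 CPM (adjusted p = 0.000352). Naive T cell markers (4 genes) summed to 6228 to 6646 CPM in OTII and 4970 to 6052 CPM in W131AOTII thymocytes, and 0 of the 4 passed. Erythroid and platelet transcripts (7 genes) were at 0.395 to 0.802 CPM in OTII and 3.90 to 33.2 CPM in W131AOTII thymocytes. The part of these differences in the lower Klf2, S1pr1 and S1pr4 was not tested.

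**Figure D1:**
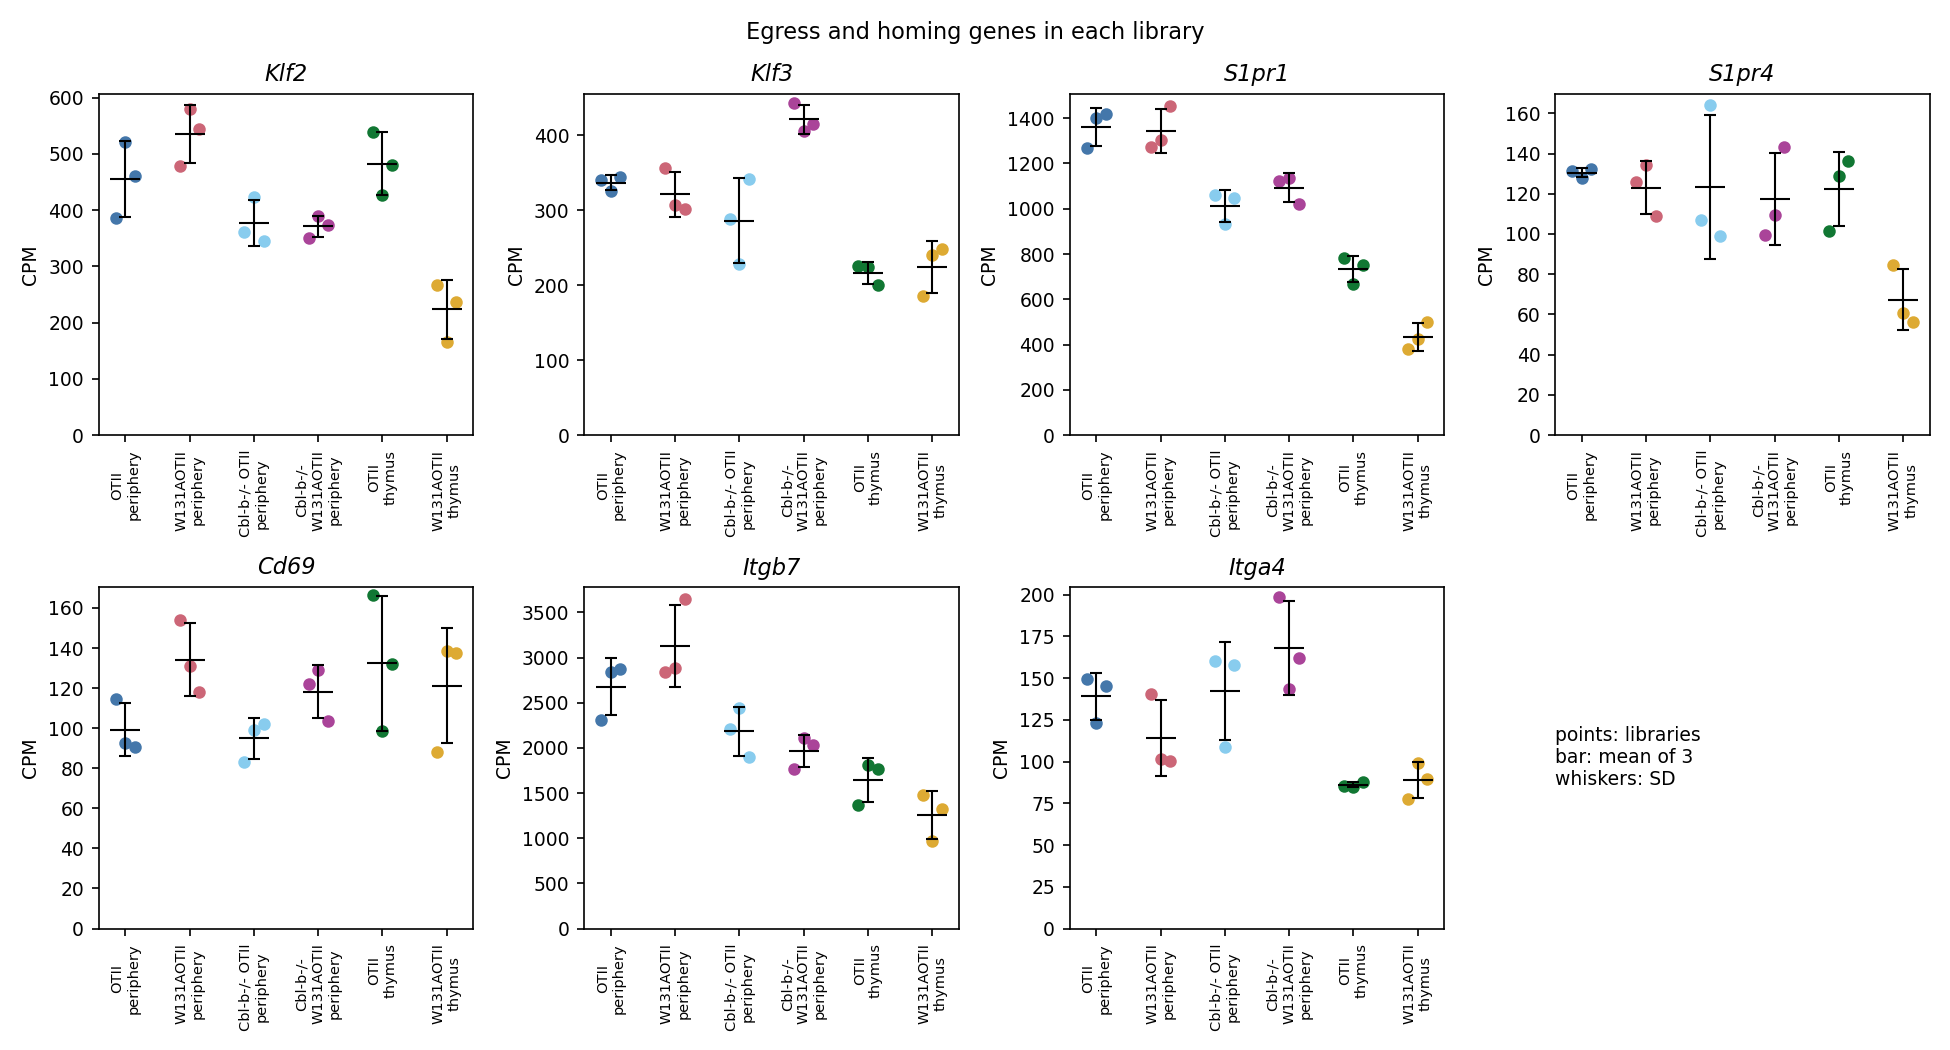
CPM (vertical axis, starting at 0) of each of the 7 genes in every library, by group; points are libraries, the bar is the mean of 3 and whiskers are the SD. W131AOTII thymocytes have the lowest Klf2 (166 to 267 CPM), S1pr1 (379 to 499 CPM) and S1pr4 (56.5 to 84.5 CPM) of the 6 groups, with no overlap with the next group.

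In peripheral naive cells, W131A left 0 of the 7 genes past the threshold, against 1.93% of tested genes. At an unadjusted p under 0.05 there was 1 gene, Cd69, and DESeq2 called 0. Klf2 was at 386, 520 and 461 CPM in OTII and at 479, 581 and 545 CPM in W131AOTII cells. The ranges overlap, and the 95% interval of the log2 fold change ran from -0.11 to 0.57 around 0.23 (SE 0.16, edgeR adjusted p = 0.803).

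S1pr1 was at 1267, 1400.0 and 1417 CPM in peripheral OTII and at 1272, 1305 and 1455 CPM in W131AOTII cells. The log2 fold change was -0.02 (SE 0.12, adjusted p = 0.997), with an interval of -0.27 to 0.24. The thymic estimate of -0.76 has an interval of its own (-1.02 to -0.50), and the difference between the 2 effects is tested below. S1pr4 was at 132, 128 and 132 CPM against 126, 134 and 109 CPM, with an interval of -0.50 to 0.33. For both receptors the groups overlapped. Cd69 was at 115, 92.6 and 90.8 CPM in OTII and at 118 to 154 CPM in W131AOTII cells. Here the groups were separate, W131AOTII higher, but the log2 fold change of 0.43 (SE 0.19, edgeR adjusted p = 0.439) did not pass once adjusted over all genes. Itgb7 had a log2 fold change of 0.22, Itga4 of -0.29 and Klf3 of -0.07, and in each the groups overlapped.

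The test of the difference between the W131A effects in the periphery and in the thymus called Klf2 alone among the 7, where 0.381% of tested genes were called. The Klf2 effect was 1.34 log2 units higher in the periphery than in the thymus (SE 0.22, edgeR adjusted p = 0.00685). It passed under all 21 alternatives, with values from 1.04 to 1.49. For S1pr1 the difference was 0.74 (SE 0.17, adjusted p = 0.0573), short of the threshold in the main analysis. It passed in 6 of 21 alternatives, among them DESeq2 (adjusted p = 0.00271), the fit without thymic OTII replicate 2 (0.0415) and the fit without thymic W131AOTII replicate 3 (0.0355). S1pr4 (0.78, SE 0.27, adjusted p = 0.332), Itgb7 (0.61), Cd69 (0.56), Itga4 (-0.33) and Klf3 (-0.12) did not pass. A difference between tissues was thus shown by this test for Klf2 and not for the other 6.

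**Figure D2:**
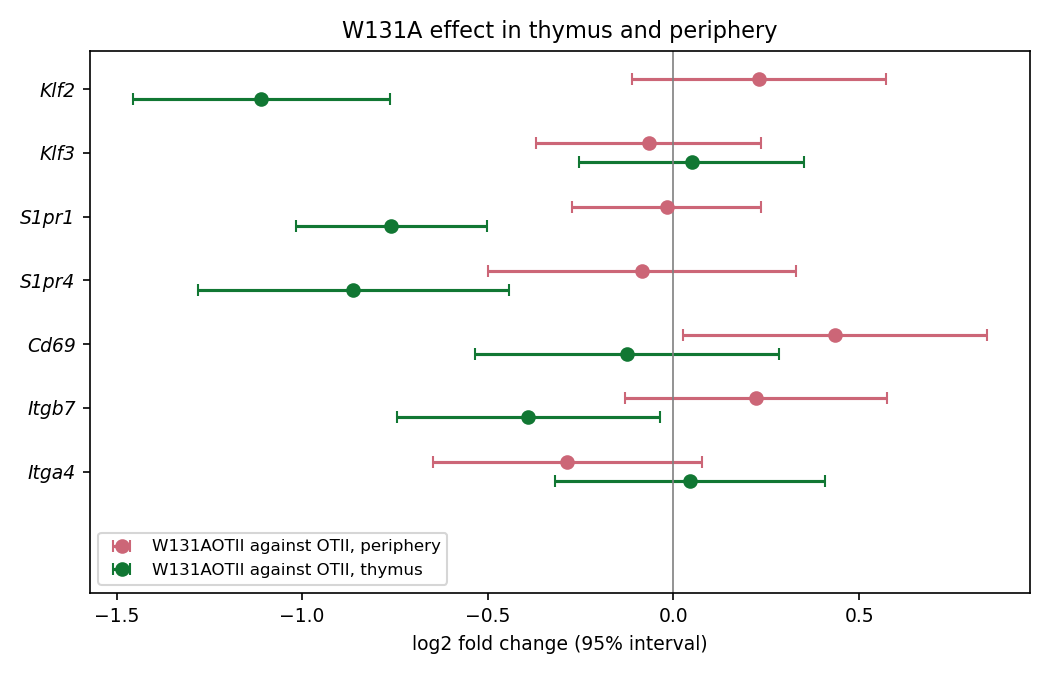
Log2 fold change of W131AOTII against OTII (horizontal axis) with its 95% interval for each gene, in the periphery and in the thymus. Klf2 sits at -1.11 in the thymus and 0.23 in the periphery with separate intervals, and S1pr1 at -0.76 and -0.02.

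In OTII cells, 4 of the 7 genes were higher in the periphery than in the thymus and 0 were lower, where 18.3% of all tested genes differed. S1pr1, Itgb7, Itga4 and Klf3 rose, each under all 15 alternatives. Klf2 and S1pr4 did not pass. The peripheral sort required a naive phenotype with low CD44, which the thymic sort did not, so gate and tissue cannot be told apart.

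S1pr1 at 1267 to 1417 CPM in the periphery lay above all thymic OTII libraries at 670 to 784 CPM (log2 difference 0.89 with SE 0.12, edgeR adjusted p = 2.3e-05). Itgb7 was at 2314, 2840.0 and 2876 CPM against 1367 to 1814 CPM (0.70, SE 0.16, adjusted p = 0.00463). Itga4 was at 149, 123 and 145 CPM against 84.9 to 87.96 CPM (0.69, SE 0.17, adjusted p = 0.00605). The chains of the alpha4-beta7 integrin were therefore both higher in peripheral cells, with no overlap between tissues. Klf3 was at 340.1, 325 and 344 CPM against 199 to 226 CPM (0.64, SE 0.14, adjusted p = 0.00288). Klf2 overlapped between tissues (log2 fold change -0.08, SE 0.16, 95% interval -0.42 to 0.26), as did S1pr4 (0.09, interval -0.32 to 0.51). Cd69 had a log2 fold change of -0.41 (SE 0.19, adjusted p = 0.145), and it passed with GC and length offsets (0.0328) and without thymic OTII replicate 2 (0.0445).

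In W131AOTII cells, 5 of the 7 genes were higher in the periphery and 0 lower, where 19.2% of tested genes differed. S1pr1 was at 1272 to 1455 CPM against 379 to 499 CPM in the thymus (log2 difference 1.63 with SE 0.12, edgeR adjusted p = 2.04e-08), a 3.1-fold difference. Klf2 was at 479 to 581 against 166 to 267 CPM (1.26, SE 0.16, adjusted p = 1.22e-05), and Itgb7 at 2844 to 3648 against 970 to 1483 CPM (1.31, SE 0.16, adjusted p = 1.14e-05). No library of either tissue reached into the range of the other for these 3 genes. S1pr4 was at 109 to 134 against 56.5 to 84.5 CPM (0.87, SE 0.19, adjusted p = 0.00271). Klf3 was at 356, 307 and 301 CPM against 185 to 248 CPM (0.52, SE 0.14, adjusted p = 0.0114), and it missed the threshold without peripheral W131AOTII replicate 1 (0.0504), without thymic W131AOTII replicate 1 (0.0753), under library size alone (0.0551) and with only these groups fitted (0.0524). Itga4 was at 141, 102 and 100.1 CPM against 77.6 to 99.2 CPM (0.36, adjusted p = 0.147), and was at 0.46 (adjusted p = 0.00314) with GC and length offsets. Cd69 was at 0.15 (adjusted p = 0.663). Whether the tissue difference itself is larger in W131AOTII than in OTII cells is the same test as the difference in W131A effects above, which called Klf2 alone.

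Markers of maturity moved with these comparisons. The 3 mature single-positive markers summed to 3199 to 3339 CPM in peripheral OTII cells, above the thymic OTII values, and the 7 immature markers to 468 to 497 CPM, below them. Ccr9, a chemokine receptor of developing thymocytes, averaged 1018 CPM in thymic and 112 CPM in peripheral OTII cells and made up most of the thymic immature sum. Of the 7 immature markers 5 were called lower (Ccr9, Cd8a, Rag1, Rag2 and Ptcra), the last 3 at means of at most 1.65 CPM. Dntt (log2 fold change 0.37) and Cd8b1 (0.03) did not pass. Of the 3 mature markers H2-Q7 (0.95) and Il7r (0.61) were called higher, Il7r in 1 of 6 fits that left out 1 library. Ccr7 (0.26), the most abundant of the 3, did not pass. The part of these markers in the gene differences was not tested.

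Other genes of the pathways were read from 4 lists. Of their 74 tested genes 13 were higher and 11 lower in the OTII periphery, where 18.3% of all tested genes were called. Of 17 tested genes of S1P receptors, signalling and turnover, 2 were higher and 1 lower in the OTII periphery than in the thymus. S1pr2, an S1P receptor that opposes migration, fell by 0.74 on the log2 scale, and Sgpp1, an S1P phosphatase, rose by 0.62. S1pr3 was also called, on 24 counts over the peripheral libraries and 1 over the thymic ones, too few to read a fold from. Of 18 tested KLF, FOXO and MEF2 genes and their kinases, 4 were higher and 2 lower. Klf6 (1.06) and Klf11 (1.24) rose and Klf10, a TGF-beta-inducible repressor, fell by 1.72, so the family did not move one way. Mef2c rose by 3.48, from a mean of 0.73 to 7.99 CPM; it is also abundant in B cells. Of 19 receptors and integrins of entry, exit and retention, 3 were higher and 7 lower. Ccr9 (-3.18), Plxnd1 (-2.12), a semaphorin receptor of thymocyte migration, and Itgae (-1.72), the CD103 chain that pairs with beta7, fell, while Itga6 rose by 1.28. Of 20 genes of integrin activation and motility, 4 were higher and 1 lower, among them Dock2 (1.05), a Rac activator needed for lymphocyte migration, and Rap1a (-0.63). Each of Ccr9, Plxnd1, Itga6, Klf6, Klf10, Mef2c, Dock2 and Rap1a passed under all 15 alternatives. With 1 library left out, Klf11 missed the threshold without peripheral replicate 1, S1pr2 and Itgae missed it without peripheral replicate 2 or 3 or thymic replicate 2, and Sgpp1 passed only without thymic replicate 1. The medians of the lists were 0.08, -0.16, -0.27 and 0.19, beside 0.64 for the 7 genes and -0.01 for all genes tested.

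With W131A in the thymus, 3 of the 74 list genes were called, where 2.77% of all tested genes were. In the S1P list 0 of 17 passed. Foxo4 (-1.13, adjusted p = 0.0417), in the KLF and FOXO list, fell, at means of 1.67 against 3.66 CPM. Itga6 (0.63, adjusted p = 0.0236), a laminin receptor chain, rose, and Rasgrp2 (-0.83, adjusted p = 0.0173), the CalDAG-GEFI exchange factor that activates Rap1 and integrins, fell. Each was the only gene of its list to pass. All 3 calls were lost without thymic W131AOTII replicate 3 or OTII replicate 3, Foxo4 and Rasgrp2 also without W131AOTII replicate 2, Foxo4 and Itga6 without OTII replicate 1, and Itga6 without OTII replicate 2. Foxo4 also missed the threshold without the 3 libraries that stood apart. In the periphery, where 1.93% of all tested genes were called, W131A raised Itgae (2.26) and Itgb8 (2.83; 66 counts against 8 over the 3 libraries of each group) and lowered Plxnd1 (-1.21), and 0 genes of the other 3 lists passed. The calls were lost without OTII replicate 1 for all 3 genes, replicate 2 for Itgae and Itgb8, replicate 3 for Itgae and Plxnd1, and without W131AOTII replicate 1 for Itgae and Plxnd1, replicate 2 for Itgb8 and replicate 3 for Plxnd1. Without the 3 libraries that stood apart, Itgae passed and Itgb8 and Plxnd1 did not. Itgae averaged 68.5 CPM in peripheral W131AOTII and 14.3 CPM in OTII cells, while its partner Itgb7 did not pass in that comparison. Regulatory T cell markers summed to 245 to 262 CPM in peripheral W131AOTII and 63.8 to 67.9 CPM in OTII cells, and NK and innate-like markers to 155 to 304 and at most 71.8 CPM; their part in these changes was not tested.

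**Figure D3:**
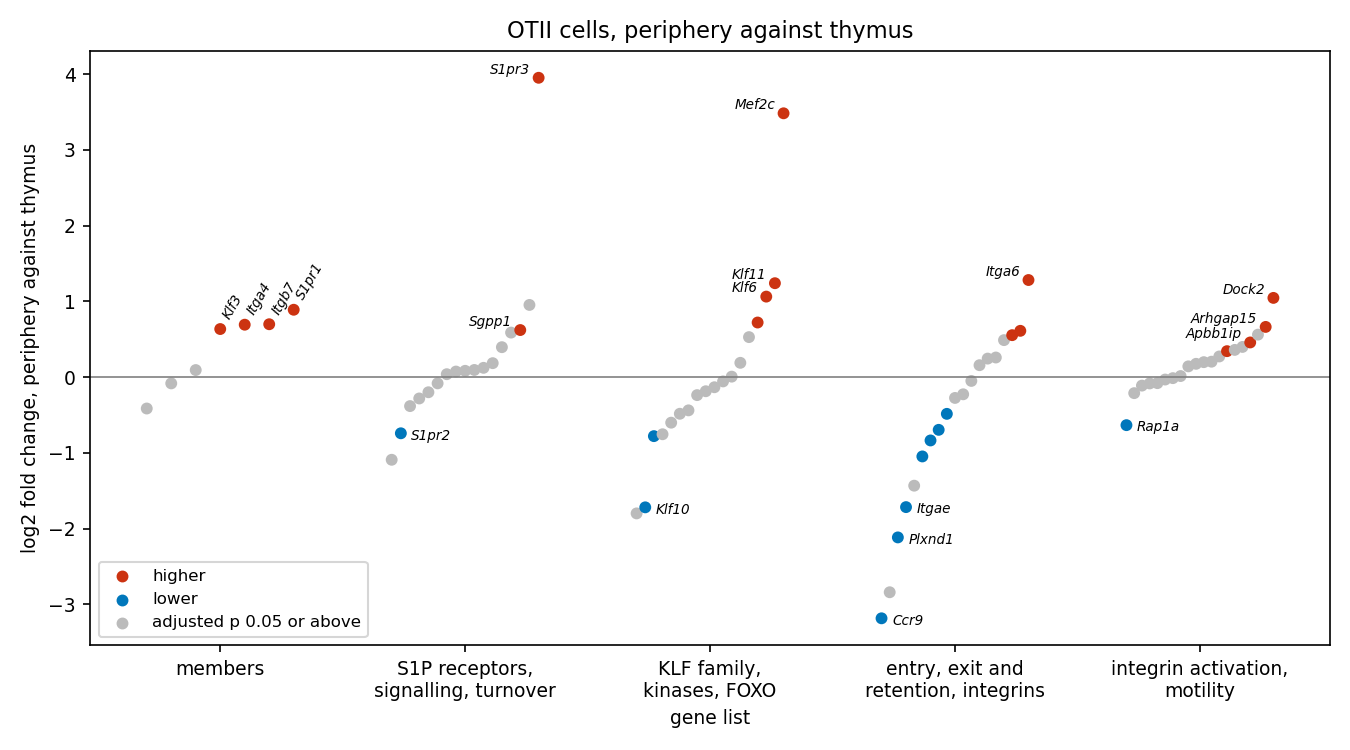
Log2 fold change of peripheral against thymic OTII cells (vertical axis) for the 7 genes and the tested genes of 4 pathway lists, sorted within each; red points are higher and blue points lower at an adjusted p under 0.05. The 4 called members lie between 0.64 and 0.89, while called genes of the entry and retention list run from -3.18 to 1.28.

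In the periphery, loss of Cbl-b went with less S1pr1 in OTII cells, the only 1 of the 7 genes called where 8.21% of tested genes were. S1pr1 was at 1059, 932 and 1048 CPM in Cbl-b-/- OTII and 1267 to 1417 CPM in OTII cells. The groups did not overlap (log2 fold change -0.43, SE 0.12, edgeR adjusted p = 0.0328). The call was lost without any 1 of OTII replicates 1, 2 and 3 (adjusted p = 0.0518, 0.109 and 0.148) or Cbl-b-/- OTII replicates 1 and 2 (0.068 and 0.117), with log2 fold changes from -0.48 to -0.37, and without the 3 libraries that stood apart (0.167). Klf2 was at 362, 424 and 346 CPM (-0.27, adjusted p = 0.288) and Itgb7 at 2208, 2440.0 and 1903 CPM (-0.29, adjusted p = 0.269). Both overlapped the OTII libraries. Klf3 (-0.24), S1pr4 (-0.08), Cd69 (-0.07) and Itga4 (0.03) did not pass. S1pr4 in Cbl-b-/- OTII replicate 2 was at 164 CPM against 107 and 99.2 CPM in the other replicates. Regulatory T cell markers summed to 93.0 to 127.5 CPM in Cbl-b-/- OTII and 63.8 to 67.9 CPM in OTII cells, and Ctla4 (2.14), Ikzf2 (1.46) and Il2ra (0.52) of the 4 rose. Naive T cell markers summed to 5437 to 5719 against 6021 to 7013 CPM, with 0 of 4 called. The part of these markers in the lower S1pr1 was not tested.

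In W131AOTII cells, loss of Cbl-b went with less Klf2 and Itgb7 and more Itga4, 3 of the 7 genes where 9.25% of tested genes were called. Klf2 was at 350.5, 389 and 374 CPM in Cbl-b-/-W131AOTII and 479 to 581 CPM in W131AOTII cells (log2 difference -0.53 with SE 0.16, edgeR adjusted p = 0.0417). Itgb7 was at 1768, 2110 and 2030.4 CPM against 2844 to 3648 CPM (-0.67, SE 0.16, adjusted p = 0.0209). The groups were separate for both. Itga4, the partner chain, was at 199, 143 and 162 CPM against 141, 102 and 100.1 CPM (0.56, SE 0.17, adjusted p = 0.0425), so the 2 chains of the integrin moved in opposite directions. Klf3 was at 443, 405 and 415 CPM against 301 to 356 CPM, separate but not called (0.39, adjusted p = 0.0796). S1pr1 was at 1123, 1136 and 1021 CPM against 1272 to 1455 CPM, also separate and not called (-0.30, adjusted p = 0.109). Cd69 (-0.18) and S1pr4 (-0.07) overlapped. Naive T cell markers were separate as well, at 4914 to 5278 CPM in Cbl-b-/-W131AOTII and 6385 to 7214 CPM in W131AOTII cells, and Tcf7 (-0.48) and Ccr7 (-0.40) of the 4 fell. The Ccr7 call (edgeR adjusted p = 0.0497) held in 1 of 6 fits that left out 1 library. It was lost without the 3 libraries that stood apart. Cd4 fell by 0.50, and Ikzf2, a factor of regulatory T cells, rose by 1.63 while the other 3 regulatory markers did not pass. All 9 B cell markers fell. The part of these markers in the differences of Klf2, Itgb7 and Itga4 was not tested.

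These calls depended on single libraries and on base composition. Klf2 and Itga4 passed only in the leave-out of W131AOTII replicate 1, missing the threshold without each of W131AOTII replicates 2 and 3 and Cbl-b-/-W131AOTII replicates 1, 2 and 3 (adjusted p = 0.0715 to 0.146 for Klf2 and 0.0567 to 0.236 for Itga4). Itgb7 missed it without W131AOTII replicate 3 (0.103) and Cbl-b-/-W131AOTII replicate 1 (0.101). Across 15198 genes, which are not independent replicates, the log2 fold change in this comparison had a Spearman correlation of -0.402 with transcript GC content. Genes called higher had a median GC content of 43.3% and genes called lower 53.8%. The members followed that order in part, with Itga4 at 41.1% GC and Klf2 and Itgb7 at 61.6% and 58.0%. Once GC content and length were offset, Klf2 was at -0.37 (adjusted p = 0.115), Itga4 at 0.33 (0.0592), Klf3 at 0.34 (0.0291) and Cd69, at 35.9% GC, at -0.65 (0.0187). Itgb7 kept its call with the offsets, at -0.48. Scaling by library size alone moved the median of all genes to 0.18, and Klf2 was at -0.38 (0.0813) and Itgb7 at -0.51. W131AOTII replicate 2 held the B cell transcripts, and without it the log2 fold changes were -0.48 for Klf2, -0.74 for Itgb7 and 0.47 for Itga4. Without all 3 libraries that stood apart, which leaves 2 of W131AOTII, the adjusted p was 0.145 for Klf2, 0.0542 for Itgb7 and 0.123 for Itga4. B cell markers summed to 52.0 to 61.5 CPM in the Cbl-b-/-W131AOTII libraries.

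**Figure D4:**
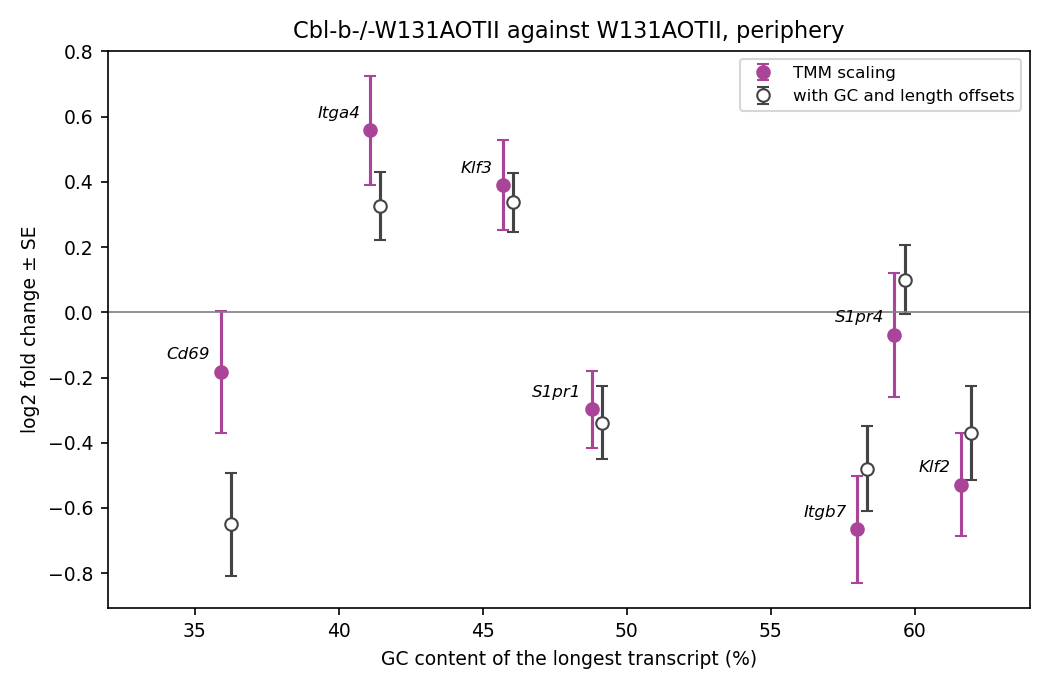
Log2 fold change with its SE (vertical axis) of Cbl-b-/-W131AOTII against W131AOTII peripheral cells for the 7 genes, by the GC content of the longest transcript in percent (horizontal axis), under TMM scaling (filled) and under GC and length offsets (open, moved slightly right). With the offsets Itga4 goes from 0.56 to 0.33, Klf2 from -0.53 to -0.37 and Cd69 from -0.18 to -0.65.

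W131A in cells without Cbl-b changed 1 of the 7 genes where 1.89% of tested genes were called. Klf3 was at 443, 405 and 415 CPM in Cbl-b-/-W131AOTII and 288, 228 and 342 CPM in Cbl-b-/- OTII cells, with no overlap (log2 fold change 0.56, SE 0.14, edgeR adjusted p = 0.043). It passed in 1 of 6 fits that left out 1 library, the one without Cbl-b-/- OTII replicate 3, and its adjusted p was 0.107 to 0.195 in the other 5 and 0.214 without the 3 libraries that stood apart. Cbl-b-/-W131AOTII cells had the highest mean Klf3 of the 6 groups (421 CPM), and no library of another group reached their lowest. Regulatory T cell markers summed to 249.8 to 309.8 CPM in Cbl-b-/-W131AOTII and 93.0 to 127.5 CPM in Cbl-b-/- OTII cells. NK and innate-like markers summed to 217.9 to 275 and 82.4 to 110.3 CPM in these groups, mostly Trdc (means of 231 and 91.0 CPM). Trdc (log2 fold change 1.34) and Eomes (1.22) were the 2 called of 6 tested. Ncr1 (-6.21), Klrk1 (-1.97), Klrb1c (-1.67) and Zbtb16 (0.54) were not called, at means of at most 1.61 CPM in these groups. The part of these markers in the higher Klf3 was not tested. Cbl-b-/-W131AOTII against OTII cells gave 0 calls among the 7, where 7.39% of tested genes were called; 3 genes (Klf3, S1pr1 and Itgb7) had an unadjusted p under 0.05 and DESeq2 called 0. Their log2 fold changes were 0.32, -0.32 and -0.44. The interaction of W131A with Cbl-b loss gave 0 calls, where 0.631% of tested genes were called, with 2 genes (Klf3, 0.63, and Itga4, 0.53) at an unadjusted p under 0.05 and 0 by DESeq2. The Cbl-b effects in OTII and in W131AOTII cells were therefore not shown to differ for any of the 7. All 6 Cbl-b-/- libraries come from Cbl-b-/- mice, and the effect of a colony or processing day they share and that of the deletion cannot be told apart.

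With Cbl-b loss in W131AOTII cells, 0 of the 74 list genes were called higher and 13 lower, where 9.25% of all tested genes were called, 483 higher and 924 lower. Scaling by library size alone turned that split over all genes to 960 higher and 531 lower, and 8 of the 13 list genes still passed, with the sign unchanged. Of the S1P genes 5 of 17 fell and 0 rose, among them S1pr2 (-0.89), Sphk2 (-0.74), a kinase that makes S1P, Gnai2 (-0.64), the G protein alpha chain that carries S1PR1 and chemokine receptor signals, and Grk2 (-0.62), a kinase that desensitises S1PR1. Of 19 entry and retention genes 5 fell and 0 rose, among them Gpr183 (-0.68), a receptor for oxysterols, and Itgal (-0.65) and Itgb2 (-0.57), the chains of LFA-1. Of 18 KLF and FOXO genes 2 fell, Klf16 (-0.80) and Mef2c (-2.32), the latter at up to 31.6 CPM among W131AOTII libraries that include the one with B cell transcripts. Of 20 motility genes 1 fell, Rac2 (-0.64). With 1 library left out, Gpr183 and Itgb2 missed the threshold only without Cbl-b-/-W131AOTII replicate 1, and S1pr2, Sphk2, Gnai2 and Rac2 there and without W131AOTII replicate 2 or 3. Grk2 missed it in those fits and without Cbl-b-/-W131AOTII replicate 2, Mef2c without W131AOTII replicate 2 or any Cbl-b-/-W131AOTII library, and Itgal and Klf16 passed only without W131AOTII replicate 1. Without the 3 libraries that stood apart, only Gpr183 and Itgb2 of these named genes passed. In OTII cells, loss of Cbl-b gave 3 higher and 6 lower calls among the 74, where 8.21% of all tested genes were called, 794 higher and 455 lower. It lowered 3 of 17 S1P genes, including Arrb1 (-0.73), a beta-arrestin, and Sphk2 (-0.57); the third, the S1P exporter Spns2, had 58 counts over the OTII libraries and 0 over the Cbl-b-/- OTII ones. Foxo1 (-0.63), an activator of Klf2 in naive T cells, and Mapk7 (-0.52), the ERK5 kinase upstream of KLF2, fell, 2 of 18. Of the entry and retention genes Itgal (-0.59) fell and Itgb1 (0.52) and Itgb8 (3.57; 79 counts against 8) rose, and Rap1a (0.60) rose among motility genes. Of these, Itgb8 passed in each of the 6 fits that left out 1 library, and Itgal in 0. Arrb1, Foxo1, Mapk7 and Rap1a all missed the threshold when replicate 2 or 3 of OTII, or replicate 2 of Cbl-b-/- OTII, was omitted. Mapk7 also missed it without the first OTII library and Rap1a without the third Cbl-b-/- one. Among those 6 fits, Sphk2 and Itgb1 passed only when replicate 2 of Cbl-b-/- OTII was omitted, and Spns2 only when replicate 1 of OTII was. Without the 3 libraries that stood apart, only Itgb1 and Itgb8 of the genes called in this comparison passed. Log2 fold changes with Cbl-b loss in OTII cells also followed GC content, with a Spearman correlation of -0.27 across 15198 genes. With GC and length offsets, Foxo1, Sphk2, Itgb1 and Itgb8 passed there, while Arrb1, Mapk7, Itgal, Rap1a and Spns2 did not. In W131AOTII cells the offsets left Itgal and Klf16 short of the threshold. The S1P lists had medians, without offsets, of -0.46 in W131AOTII and -0.39 in OTII cells, beside 0.03 and 0.04 for all genes, and the 7 genes had medians of -0.18 and -0.24.

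**Figure D5:**
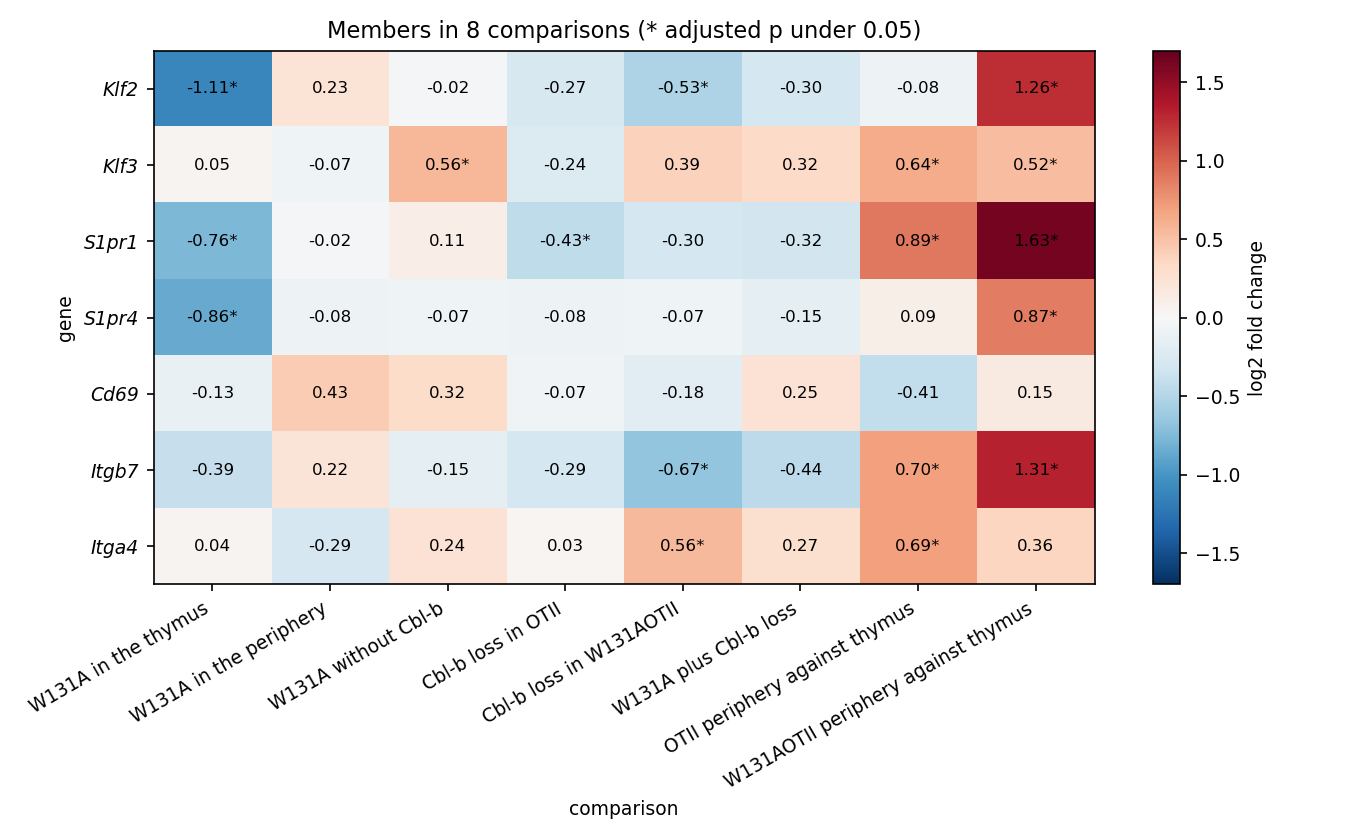
Log2 fold change of the 7 genes (rows) in 8 comparisons (columns), with the value in each cell and an asterisk where the adjusted p was under 0.05. Called values are lower for Klf2, S1pr1 and S1pr4 with W131A in the thymus (-1.11, -0.76 and -0.86) and higher for 4 and 5 genes in the periphery against the thymus. Also called are S1pr1 with Cbl-b loss in OTII (-0.43) and Klf3 with W131A without Cbl-b (0.56). With Cbl-b loss in W131AOTII, Klf2 (-0.53), Itgb7 (-0.67) and Itga4 (0.56) are called.

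The order of group levels differed from gene to gene. Klf2 ran from W131AOTII periphery (mean 535 ± 51.5 CPM, SD, n = 3) through OTII thymus (482 ± 55.9), OTII periphery (456 ± 67.2), Cbl-b-/- OTII (377 ± 41.1) and Cbl-b-/-W131AOTII (371 ± 19.2) to W131AOTII thymus (224 ± 52.0), and only the last step separated neighbouring groups. S1pr1 fell into 4 separate levels: OTII and W131AOTII periphery (1361 ± 81.9 and 1344 ± 97.7 CPM), Cbl-b-/-W131AOTII and Cbl-b-/- OTII (1093 ± 62.7 and 1013 ± 70.2), OTII thymus (734 ± 58.7) and W131AOTII thymus (434 ± 60.5). For S1pr4 the 5 other groups overlapped in a chain from 130.5 ± 2.41 (OTII periphery) to 117 ± 23.0 CPM (Cbl-b-/-W131AOTII), above W131AOTII thymus (67.2 ± 15.1). Klf3 was separate only between Cbl-b-/-W131AOTII (421 ± 19.4 CPM) and the next group, OTII periphery (336 ± 9.97), and ended at OTII thymus (217 ± 14.8). Itga4 stepped down only between W131AOTII periphery (114 ± 22.9 CPM) and W131AOTII thymus (88.8 ± 10.8). Neighbours overlapped throughout for Cd69, from 134 ± 18.3 CPM in W131AOTII periphery to 94.9 ± 10.1 in Cbl-b-/- OTII, and for Itgb7, from 3124 ± 454 CPM in W131AOTII periphery to 1257 ± 262 in W131AOTII thymus.

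Per length, Itgb7 was the most abundant of the 7 in every group. In peripheral OTII cells the mean RPKM values were 966 for Itgb7, 447 for S1pr1, 247 for Klf2, 54.7 for S1pr4, 29.9 for Klf3, 15.3 for Cd69 and 9.96 for Itga4. The beta7 chain therefore far exceeded its partner alpha4 at the RNA level. In OTII thymocytes S1pr1 (241 ± 19.3 RPKM) and Klf2 (261 ± 30.2 RPKM) overlapped, whereas in the periphery S1pr1 was clearly the higher of the pair. In W131AOTII thymocytes they were at 142 ± 19.9 and 121 ± 28.2 RPKM.

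The genes whose profiles across the 18 libraries lay nearest each member were found by the root mean square difference of centred log2 CPM among 8101 candidates, given here as a description. Nearest to Klf2 were Lgmn (0.211), Emc9 (0.239) and Arl4c (0.248), where the median candidate was at 0.524. Lgmn, which encodes the lysosomal protease legumain, averaged 11.4 CPM in W131AOTII and 21.9 CPM in OTII thymocytes. Emc9 was also nearest to S1pr4 (0.164), before Fam173a (0.188) and Fxyd5 (0.192). Nearest to S1pr1 were Il6ra (0.2), Cpm (0.201) and Tubb2a (0.239). Il6ra, the interleukin-6 receptor chain, averaged 236 CPM in OTII periphery and 144 and 88.9 CPM in OTII and W131AOTII thymocytes, and it was second nearest to Itgb7 (0.217) after Mvp (0.196) and before Aldoa (0.22). Nearest to Klf3 were Poli (0.127), Stk38 (0.128) and Elac1 (0.159), and nearest to Itga4 were Hps3 (0.131), Mtmr10 (0.165) and Slc35a3 (0.167). Cd69 had Reep3 (0.217), Dlg3 (0.221) and Pdpk1 (0.224) nearest, against a median of 0.398.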

How the data were processed

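RNA from 18 libraries of sorted mouse CD4 T cells was sequenced as single-end reads of 50 bases. The values used are unnormalized read counts for each Ensembl gene, in a table deposited by the authors. STAR 2.7.2, DESeq2 and the build GRCm38 are named in the submitters' processing notes; no counting tool, annotation or strand setting is named in the sources used here. Column totals ran from 19708218 to 36218772. All 55536 identifiers matched GENCODE M21.

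Groups came from the sample titles. A single model of the 18 libraries was fitted with edgeR 4.0.16 (R 4.3.3; TMM scaling, filterByExpr, robust quasi-likelihood F test, 12 residual degrees of freedom), and p-values were Benjamini-Hochberg adjusted over the 15204 genes tested, at a threshold of 0.05. Intervals are 95% and use the standard error with 12 degrees of freedom. RPKM divides CPM by the merged exon length of a gene. The script was tested on simulated data.

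The 7 members were named in every comparison. From each pathway list, up to 4 called genes with the largest change were named, and the 3 nearest profiles per member among protein-coding genes of at least 10 CPM. The members and lists were chosen with earlier results of these data known; 1 gene of the lists is not reported here. Comparisons that share a control group are not independent. Replicates of a group differed by far more than sampling noise (chi-square per gene of 13.3 or more), and each library was treated as 1 replicate. That spread cannot show whether the libraries came from separate mice. Alternatives were DESeq2 1.42.0, its size factors, library size alone, no filter, only the groups compared, a replicate block, offsets for GC content and length (loess span 0.3), and leaving out each library in turn. The 3 libraries left out as standing apart were chosen from earlier work on these data.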

Additional observations from a re-analysis of the deposited data

Results flagged for a closer look

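The W131A effect on Klf2 differed between tissues by a test of the difference itself. Klf2 had a log2 fold change of -1.11 in thymocytes and 0.23 in peripheral cells, a difference of 1.34 (SE 0.22, edgeR quasi-likelihood adjusted p = 0.00685, 95% interval 0.86 to 1.83). All 3 W131AOTII thymocyte libraries were below all 3 OTII ones, while the peripheral groups overlapped. Tissue, sort gate and the markers of maturity that differ between these groups cannot be told apart here.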

How the results depend on the processing

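Over 1134 refitted values of the 7 genes, 42 lost a call, 26 gained one and 0 called values changed sign. Of the values not called in either fit, 58 changed sign, 15 of them by more than 1 SE of the main fit. The remaining 1051 kept their side of the threshold, with the same sign or a sign change within that SE. For list genes called in the main analysis, 958 of 1272 refitted values passed and 0 changed sign. Numbers of members called that changed by more than 1.5 times were as follows. For the difference in W131A effects (1 called), DESeq2 gave 2, no filter 3, and offsets for GC content and length 2 with or without the replicate block. For Cbl-b-/-W131AOTII against OTII (0 called), no filter gave 1, only the groups compared 4, and the offsets 1 with or without the block. For Cbl-b loss in W131AOTII (3 called), only the groups compared gave 5 and leaving out the 3 libraries that stood apart gave 0. For W131A without Cbl-b (1 called), only the groups compared, the replicate block and leaving out those 3 libraries each gave 0. For Cbl-b loss in OTII (1 called) the last gave 0, and for W131A in the thymus (3 called) only the groups compared gave 1. Leaving out 1 library in turn gave 1 to 2 for the difference in W131A effects, 0 to 3 and 0 to 1 for Cbl-b loss in W131AOTII and OTII, and 0 to 1 for W131A without Cbl-b. Smaller changes were 2 to 3 over the same fits for W131A in the thymus and 4 to 5 for each comparison of periphery with thymus (4 called in OTII, 5 in W131AOTII). There the offsets, with or without the block, gave 5 in OTII and 6 in W131AOTII, and library size alone and only the groups compared gave 4 in W131AOTII. A fit of only the groups compared has fewer samples; the cause of the other changes was not tested.

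Same-numbered libraries of the groups compared, each centred on its group mean, had correlations of -0.304 to 0.205 over 24 pairs, 3 of them above 0.1. The replicate numbers thus gave no steady pairing. These values cannot show whether libraries share mice under another numbering, and the main fit treats all libraries as unpaired, also between tissues. With the replicate block, Klf2 had an adjusted p of 0.0604 for Cbl-b loss in W131AOTII and Klf3 of 0.0591 for W131A without Cbl-b, and no other call changed. Scaling by library size alone moved the median of all genes to 0.179 for Cbl-b loss in W131AOTII, where the split of calls went from 483 higher and 924 lower to 960 and 531, to 0.155 for Cbl-b-/-W131AOTII against OTII (from 588 and 535 to 833 and 339) and to 0.115 for the interaction. With at least 1394 counts per gene and library, counting error is small for the members, and the number of libraries limits the precision.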

Other observations

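Relatives of the 7 genes ranged from near 0 to levels above some of the 7. The S1P receptor S1pr5 averaged at most 0.161 CPM in any group and was not tested, S1pr3 averaged at most 0.445 CPM, and S1pr2 12.9 to 39.4 CPM, highest in W131AOTII thymocytes. Among KLF family genes, Klf4 averaged at most 0.113 CPM, while Klf13 averaged 148 to 227 CPM and Klf6 73.1 to 182 CPM. Foxo1 averaged 667 and 668 CPM in peripheral OTII and W131AOTII cells, 431 and 500 CPM in the Cbl-b-/- groups and 404 and 357 CPM in OTII and W131AOTII thymocytes.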
